A study of Mus musculus with 35 samples.

Results

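Hba-a1, Hba-a2, Hbb-bs, Hbb-bt, Alas2 and Slc4a1 are transcripts of red blood cells and of the cells that make them. They were taken by symbol from the 55356 counted genes of the study, and all 6 could be tested. Hemoglobin is built from paired alpha and beta globin chains, each of which holds a heme group that binds oxygen. Hba-a1 and Hba-a2 encode the adult alpha chain, Hbb-bs and Hbb-bt the adult beta chain. Alas2, the erythroid aminolevulinate synthase, makes the first intermediate of heme in developing red cells, and Slc4a1 is the anion exchanger that anchors the red cell skeleton to the membrane. Red cells mature in the bone marrow and lose their nucleus, but the youngest of them in the circulation still carry globin mRNA, so that an organ sampled with its blood brings these transcripts along.

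The study profiled adult C57BL/6J mice of both sexes, without any genetic change or treatment, to annotate and quantify pseudogene transcripts. Strand-specific, rRNA-depleted RNA-seq was available for 29 libraries in 10 groups: brain, cerebellum, heart, colon and gonad (ovary or testis) of females and of males. Every group had 3 libraries except the male heart, which had 2. Full-length Iso-seq runs, 6 in number, entered only through the gene models built from them, and whether the replicates came from separate animals is not stated in the labels, so the p-values measure the spread between these libraries. The sources used here do not say whether the organs were flushed of blood, and in whole organs fewer red cells cannot be told apart from less RNA per red cell.

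Library totals ranged from 11742417 to 36194255 counts, with the lowest totals in colon. All 12 marker genes used to check the tissue labels separated the labelled tissue from the others. No pair of libraries held identical counts. In the neutrophil marker list, male cerebellum replicate 1 and female cerebellum replicate 1 stood above the other cerebellum libraries, and in the lymphocyte list female heart replicate 3 and male colon replicate 1 stood above their tissues. Calls of the members between tissues that changed without one of these libraries are given with and without it.

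The alpha genes are neighbors on chromosome 11 and the beta genes on chromosome 7, and within each pair the copies are nearly the same sequence. In GRCm38.p6 the model of Hba-a1 (ENSMUSG00000069919) spans chr11:32283511-32284465 on the plus strand and that of Hba-a2 (ENSMUSG00000069917) chr11:32296274-32297298 on the plus strand. Hbb-bs (ENSMUSG00000052305) spans chr7:103826534-103827927 and Hbb-bt (ENSMUSG00000073940) chr7:103812526-103813921, both on the minus strand and both with 3 exons. Alas2 (ENSMUSG00000025270) lies at chrX:150547445-150570636 on the plus strand with 11 exons. Slc4a1 (ENSMUSG00000006574) lies at chr11:102348824-102366203 on the minus strand with 20 exons. The models of Hba-a2, both beta genes and Alas2 came from Iso-seq, and those of Hba-a1 and Slc4a1 from ENSEMBL.

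The coding sequences of the alpha genes differed at 1 of 426 bases, and those of the beta genes at 1 of 441 bases. Counted from the A of the start codon, the substitution from Hba-a1 to Hba-a2 was C381T and that from Hbb-bs to Hbb-bt was C417T. The stretches of 60 coding bases around these positions are shown because they hold the only coding letters that separate each pair, with the differing base in capitals (GENCODE transcripts, GRCm38).

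Hba-a1: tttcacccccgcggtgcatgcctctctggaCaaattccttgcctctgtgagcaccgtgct
Hba-a2: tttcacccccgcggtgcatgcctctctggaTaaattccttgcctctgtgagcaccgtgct
Hbb-bs: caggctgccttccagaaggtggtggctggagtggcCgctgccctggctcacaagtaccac
Hbb-bt: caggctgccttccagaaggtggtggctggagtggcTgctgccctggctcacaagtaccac

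Only reads with a single place in the genome were kept by the study, so reads within the shared stretches could not be assigned. Of all windows of 100 bases in the GENCODE transcript, 56.5% of those of Hba-a1, 74.5% of Hba-a2, 62.6% of Hbb-bs and 54.8% of Hbb-bt were found word for word in the other copy. Slc4a1 shared 0 of its 4446 windows of that length with another transcript. The split of counts between Hba-a1 and Hba-a2, and between Hbb-bs and Hbb-bt, is therefore uncertain, and sums over a pair also miss the shared reads.

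Upstream of their start sites the beta genes and Alas2 differ more. The 130 bases before the RefSeq start are shown for 3 members, 5′ to 3′ on the gene's strand, because both beta genes and Alas2 are set against each other in the results. Capitals mark matches on either strand to the CCAAT box (spelled CCAAT), the CACCC box (spelled CACCC), the TATA box (spelled TATAA) or a GATA site (spelled AGATAA or TGATAA, or AGATAG or else TGATAG), and adjoining matches run together.

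Hbb-bs promoter, chr7:103827929-103828058, minus strand: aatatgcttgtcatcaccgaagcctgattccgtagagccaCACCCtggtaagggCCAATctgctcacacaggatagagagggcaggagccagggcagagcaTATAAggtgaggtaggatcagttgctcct
Hbb-bt promoter, chr7:103813924-103814053, minus strand: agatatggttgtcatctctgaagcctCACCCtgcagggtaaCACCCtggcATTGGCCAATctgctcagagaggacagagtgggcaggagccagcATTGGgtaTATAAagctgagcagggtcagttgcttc
Alas2 promoter, chrX:150547287-150547416, plus strand: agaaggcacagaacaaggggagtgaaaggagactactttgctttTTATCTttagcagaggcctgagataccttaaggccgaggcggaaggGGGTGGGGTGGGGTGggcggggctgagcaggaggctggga

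Both beta promoters held a CACCC box, a CCAAT box and a TATA box in that order, with the TATA box at -29 in Hbb-bs and -28 in Hbb-bt. The 130 bases before the RefSeq starts of Hba-a1 and Hba-a2, which lie within the models used for counting these genes and are not printed, held the same 3 sets of letters, with CCAAT at -88 and -91, CACCC at -60 and -63 and TATAA at -27 and -30. Alas2 held a reversed GATA site, TTATCT, at -86. Beyond the bases shown, the 250 bases searched held a GATA site at -183 in Hba-a1, -186 in Hba-a2 and -210 in Hbb-bs, and none in Hbb-bt. They held a TATA box at -207 in Alas2 (reversed at -208, and at -229 in Hbb-bt). A further CACCC box lay at -167 in Hba-a1, -170 in Hba-a2 and -140 in Hbb-bt. Nearer its start Alas2 held GGGTG, the reverse complement of CACCC, at -40, -35 and -30. Over all 32536 RefSeq promoters of 250 bases upstream, CCAAT occurred in 33.8%, CACCC in 52.1%, TATAA in 22.7% and one of the GATA-type letters in 26.5%, so each of these matches is common. A promoter entry was available for 5 of the 6 members.

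The 4 globins together made up 0.450% to 1.56% of all counts in the heart and 0.00156% to 0.00575% in the colon, a span of 999-fold between the extreme libraries. Cerebellum libraries held 0.107% to 0.229% and brain libraries 0.0224% to 0.112%. The ovary held 0.00669% to 0.0208% and the testis 0.00398% to 0.00869%. Every heart library stood above every cerebellum library, and female brain replicate 1, at 0.112%, was the only brain library that reached the cerebellum range.

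Hbb-bs was the most abundant member in every tissue and carried 78.1% of all globin counts. In the heart it reached 12712, 12100.4 and 3523 CPM (counts per 1e+06 counts of the library) in females and 5270 and 4370 CPM in males. The cerebellum libraries ran from 804 to 1769 CPM with a median of 928 CPM, and the brain libraries from 166 to 860 CPM with a median of 359 CPM. Ovary libraries held 163, 107 and 57.3 CPM and testis libraries 65.9, 32.4 and 50.6 CPM. Colon libraries ranged from 13.6 to 42.0 CPM with a median of 26.3 CPM. The heart did not overlap any other tissue, whereas testis overlapped both ovary and colon. Per kilobase of exon, Hbb-bs averaged 12113 FPKM (SD 7082, n = 5) in the heart against 1237 FPKM for Hba-a1, 823 FPKM for Hba-a2 and 721 FPKM for Hbb-bt.

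Hbb-bt followed the same course at a lower level, with 784, 646 and 218 CPM in the female hearts and 389 and 217 CPM in the male hearts. Its brain libraries ran from 11.8 to 48.1 CPM (median 21.1) and its cerebellum libraries from 42.9 to 97.4 CPM (median 75.7). Ovary values were 15.7, 4.62 and 2.28 CPM, testis values 5.27, 2.49 and 2.76 CPM, and colon values 0.410 to 4.2 CPM (median 1.39). Colon, ovary and testis overlapped for Hbb-bt, where the colon rested on only 7 to 56 counts a library.

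The alpha genes ranked the tissues in the same way. Hba-a1 stood at 1304, 1655 and 473 CPM in female hearts and at 931 and 660.2 CPM in male hearts. It ran from 114 to 281 CPM in cerebellum (median 172), from 31.9 to 117 CPM in brain (median 43.8) and from 1.05 to 7.65 CPM in colon (median 3.34). Ovary libraries held 18.6, 16.1 and 4.84 CPM of Hba-a1 and testis libraries 11.7, 3.20 and 8.36 CPM. Hba-a2 stood at 759, 985 and 288 CPM in female hearts and at 657 and 476 CPM in male hearts. Its cerebellum libraries ran from 73.5 to 157 CPM (median 89.2) and its brain libraries from 14.3 to 97.4 CPM, where the highest value, in female brain replicate 1, was far above the next of 28.3 CPM. The colon held 0.527 to 3.67 CPM of Hba-a2, the ovary 10.04, 6.51 and 2.53 CPM and the testis 4.08, 1.78 and 2.83 CPM, and these last 3 tissues overlapped.

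Alas2 departed from the globins in the testis. In the heart it stood at 520, 550.2 and 176 CPM in females and 301 and 225 CPM in males. Cerebellum libraries ran from 47.6 to 112 CPM (median 62.6) and brain libraries from 12.5 to 48.7 CPM (median 21.0). The testis libraries held 22.7, 19.9 and 20.3 CPM, within the range of the brain, while the ovary libraries held 9.31, 4.499 and 3.098 CPM and the colon libraries 1.91 to 4.95 CPM (median 2.19). All 3 testis libraries were above all ovary and colon libraries.

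Slc4a1 was the least abundant member, with 4209 counts over all libraries. Female hearts held 22.5, 22.2 and 6.37 CPM and male hearts 13.3 and 15.8 CPM. In the cerebellum it ran from 4.75 to 31.6 CPM with a median of 8.63 CPM, the highest values being 31.6 CPM in male replicate 1 and 21.4 CPM in female replicate 1. Brain libraries ran from 0.691 to 5.36 CPM (median 1.77) and testis libraries held 1.19, 1.39 and 1.04 CPM. The ovary libraries had 14, 0 and 1 counts of Slc4a1 and the colon libraries 1 to 10 counts, so that differences between these tissues were not detectable at this depth. Heart and cerebellum overlapped, unlike for every other member.

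**Figure D1:**
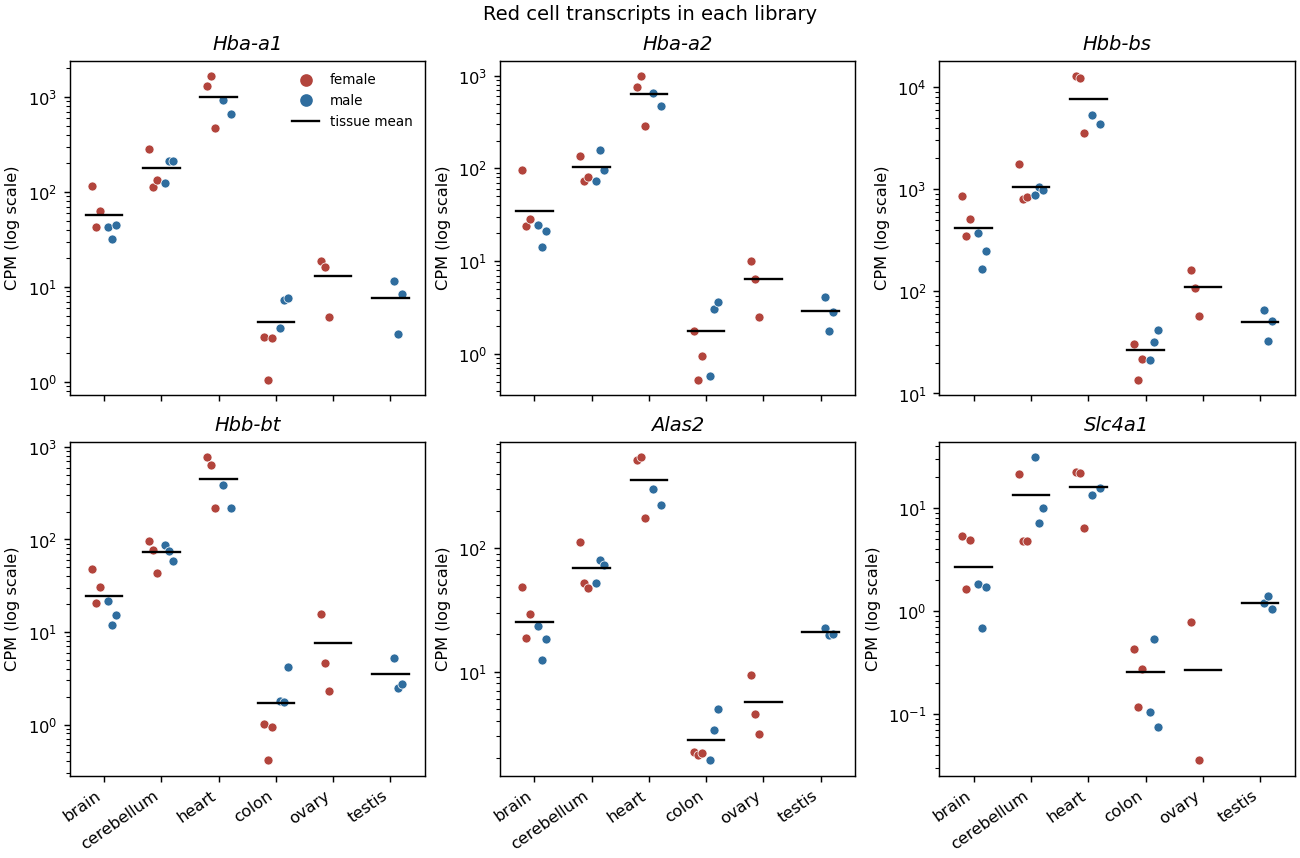
CPM (log axis, a scale of its own in each panel) of the 6 members in the 29 libraries by tissue, with females in red, males in blue and a bar at the tissue mean. One ovary library with 0 counts of Slc4a1 cannot be drawn on the log axis. The heart is highest in the globin and Alas2 panels, and testis lies level with brain only for Alas2 and Slc4a1.

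Tissues were compared with edgeR's quasi-likelihood test over all 29911 genes tested, on the mean of the sexes, and genes were called at a Benjamini-Hochberg adjusted p under 0.05. Of the 90 combinations of a member and a pair of tissues, 80 were called. Of all genes, 26.1% (cerebellum against brain) to 71.9% (testis against colon) were called in a pair, both directions together. Heart was above brain for all 6 members, with 23.7% of all genes called higher. For Hbb-bs the difference was 4.67 on the log2 scale (SE 0.41, adjusted p = 1.55e-10) and for Slc4a1 3.27 (SE 0.56, adjusted p = 1.30e-05). Cerebellum was also above brain for all 6, where only 10.8% of genes were called higher. There the log2 difference was 1.33 for Hbb-bs (SE 0.35, adjusted p = 0.00526), 1.41 for Alas2 (SE 0.32, adjusted p = 0.00159) and 2.34 for Slc4a1 (SE 0.53, adjusted p = 0.00134). That of Slc4a1 was 1.76 without female cerebellum replicate 1, 1.89 without male cerebellum replicate 1 and 1.31 (adjusted p = 0.0150, edgeR) without these and 2 further libraries, female heart replicate 3 and male colon replicate 1.

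Heart exceeded cerebellum for 5 members (23.5% of all genes called higher), by 2.90 for Alas2 (SE 0.35, adjusted p = 6.09e-08) to 3.34 for Hbb-bs (SE 0.38, adjusted p = 2.99e-08). Slc4a1 was not called in that comparison, with a log2 difference of 0.93 (SE 0.51, adjusted p = 0.131 in edgeR). It passed when female cerebellum replicate 1 (1.51, adjusted p = 0.0145), male cerebellum replicate 1 (1.38, adjusted p = 0.0299) or female heart replicate 3 (1.17, adjusted p = 0.0364) was left out, and reached 2.20 (adjusted p = 0.000108) in edgeR when these 3 and male colon replicate 1 were left out together. With sets of libraries of the same sex whose code numbers in the labels differ only in the last digit as a block (chosen after seeing the data), it was 1.08 (adjusted p = 0.0470).

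Colon lay below brain, cerebellum and heart for all 6 members, with 38.7%, 37.3% and 25.0% of all genes called lower. From heart to colon the log2 difference of Hbb-bs was -8.67 (SE 0.48, adjusted p = 4.98e-14, edgeR), the steepest fall among the beta genes being -8.86 for Hbb-bt. Ovary lay below brain, cerebellum and heart for all 6 members as well, with 31.2%, 29.1% and 18.3% of genes called lower. Testis lay below cerebellum and heart for all 6 (30.7% and 25.3% of genes called lower). It lay below brain for the 4 globins only, with 31.2% of genes called lower. The log2 difference from brain to testis was -2.75 for Hbb-bs (SE 0.49, adjusted p = 1.75e-05), 0.02 for Alas2 (SE 0.39, adjusted p = 0.983) and -0.75 for Slc4a1 (SE 0.68, adjusted p = 0.336).

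Among the tissues with the fewest globin counts, ovary exceeded colon for the 4 globins (26.7% of all genes called higher), by 1.74 for Hbb-bs (SE 0.41, adjusted p = 0.000967). Without female gonad replicate 1 the calls of Hba-a1, Hba-a2 and Hbb-bt were lost in edgeR (adjusted p = 0.0741, 0.114 and 0.139), and without female gonad replicate 2 that of Hba-a1 (adjusted p = 0.0731). Testis exceeded colon for 5 members (42.3% of genes called higher), by 3.30 for Alas2 (SE 0.41, adjusted p = 9.64e-08) and 1.26 for Hbb-bs (SE 0.41, adjusted p = 0.00839). Hba-a2 was the exception, at 1.21 (SE 0.59, adjusted p = 0.0685), and was called without female brain replicate 1 (adjusted p = 0.0460), female heart replicate 3 (adjusted p = 0.0421) or male colon replicate 3 (adjusted p = 0.0457). Hba-a1, Hbb-bs and Hbb-bt lost their calls without male gonad replicate 1 (adjusted p = 0.127, 0.0616 and 0.0831). Testis and ovary were not separated by any globin, with log2 differences of -0.48 (SE 0.49) for Hbb-bs and -0.11 (SE 0.55) for Hba-a1, the second of which turned to 0.05 with size factors by relative log expression. Alas2 and Slc4a1 were called higher in testis than in ovary, by 2.58 (SE 0.49, adjusted p = 6.02e-05) and 3.04 (SE 1.00, adjusted p = 0.00984, lost at 0.0538 without female gonad replicate 3), where 37.8% of all genes were called higher. Female gonad replicate 1 held 14 of the 15 ovary counts of Slc4a1, and without it the difference was 6.15 (adjusted p = 0.00116), against 2.43 (adjusted p = 0.0496) without female gonad replicate 2. Without female gonad replicate 1 the log2 difference from brain to ovary also went from -3.78 to -6.89 for Slc4a1 and from -2.11 to -3.12 for Hbb-bt.

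Males and females were compared within brain, cerebellum, heart and colon. None of the 24 comparisons of a member between the sexes was called by edgeR, nor by DESeq2, and at an unadjusted p under 0.05 there were 2 in edgeR and 3 in DESeq2. In edgeR that number lay between 0 and 10 when 1 library was left out, with 10 without female heart replicate 3, and was 12 with the 4 libraries of cerebellum, heart and colon named above left out together. Of all genes tested, 0.0368% were called in brain, 0.0301% in cerebellum, 0.0635% in heart and 0.324% in colon. The 2 were in the brain, where the female libraries held 860, 349.8 and 512 CPM of Hbb-bs and the male libraries 369, 166 and 248 CPM. The ranges of the sexes overlapped, with a log2 difference of -1.07 (SE 0.49, adjusted p = 1.00 in edgeR) for male minus female Hbb-bs and -1.24 (SE 0.57, adjusted p = 1.00) for Hba-a2. In the heart, female replicates 1 and 2 held more Hbb-bs than both male libraries and female replicate 3 held less. No member was called for a sex difference that varied with tissue by edgeR or DESeq2, with 0 members in edgeR and 1 in DESeq2 at an unadjusted p under 0.05 and 0.0167% of all genes called by edgeR. With the same 4 libraries left out all 6 members were at an unadjusted p under 0.05 in edgeR, and 0 were called.

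Alpha and beta globin counts rose together from library to library. The ratio of summed alpha to summed beta counts lay between 0.113 and 0.324 in the 29 libraries, with a median of 0.207, while beta CPM spanned 964-fold. The ratio averaged 0.211 ± 0.042 (SD, n = 6) in brain, 0.252 ± 0.048 (n = 6) in cerebellum, 0.218 ± 0.048 (n = 5) in heart and 0.196 ± 0.071 (n = 6) in colon. In ovary it was 0.160, 0.202 and 0.124, and in testis 0.221, 0.143 and 0.209. The highest ratio was in male cerebellum replicate 2 and the lowest in female colon replicate 2, which rested on 27 alpha counts. None of the 15 pairs of tissues passed an exact two-sided permutation test after adjustment over the pairs, and the smallest p was 0.0238 (adjusted p = 0.357), for ovary against cerebellum, whose values did not overlap. Against each other the groups of 3 libraries could not go below an exact p of 0.1. Per kilobase of exon the ratio lay between 0.0889 and 0.256, with a median of 0.163.

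**Figure D2:**
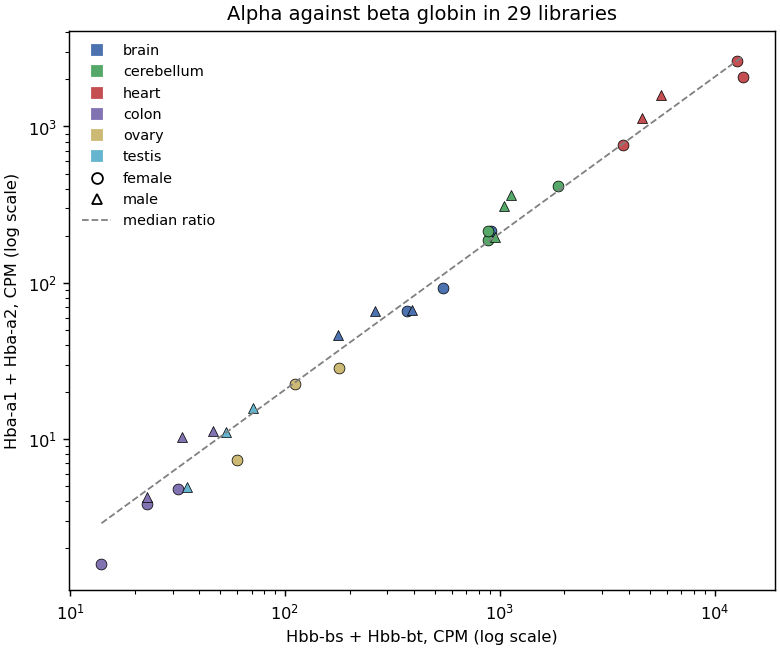
Summed alpha globin (Hba-a1 and Hba-a2) against summed beta globin (Hbb-bs and Hbb-bt) in CPM, both on log axes, for 29 libraries colored by tissue, with circles for females and triangles for males. The dashed line is the median ratio of 0.207, and the libraries follow it from colon at the lower left to heart at the upper right, with ratios of 0.113 to 0.324.

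Within the tissues with 6 libraries, log2 CPM of alpha and beta globin were correlated. Pearson's r was 0.935 in brain (exact permutation p = 0.00278, adjusted p = 0.00417, Spearman's rho 1.00, p = 0.00278), 0.948 in colon (exact p = 0.00278, adjusted p = 0.00417, rho 1.00, p = 0.00278) and 0.844 in cerebellum (exact p = 0.0111, adjusted p = 0.0111, rho 0.83, p = 0.0583). Without the 2 libraries farthest from the median beta level, r over the remaining 4 was 0.828 in brain, 0.769 in colon and 0.967 in cerebellum. Both axes share the library total, and alpha and beta reads come from the same library.

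Hba-a1 took 54.5% to 86.4% of the alpha counts over the 29 libraries (mean 66.1%, SD 6.48) and Hbb-bs 90.8% to 97.1% of the beta counts (mean 94.1%, SD 1.68). The lowest share of Hba-a1, in female brain replicate 1, had a 95% Wilson interval of 53.2% to 55.8%, and the highest, in male colon replicate 1 on 81 alpha counts, one of 77.3% to 92.2%, both for counting error only. None of the 15 pairs of tissues was called for either split by the exact permutation test. The smallest p was 0.0130 (adjusted p = 0.179) for Hba-a1 to Hba-a2 in colon against heart, 1.65-fold higher in colon, and 0.190 for Hbb-bs to Hbb-bt. Because reads in the shared sequence shown above were dropped, these splits describe the assignable reads.

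Alas2 relative to beta globin set the testis apart. Per 100 beta globin counts there were 31.9, 57.1 and 38.0 Alas2 counts in the testis and 3.85 to 15.1 in all other libraries. The brain averaged 5.95 ± 0.85 (SD, n = 6), the cerebellum 6.14 ± 0.71 (n = 6) and the heart 4.62 ± 0.56 (n = 5). The ovary libraries held 5.201, 4.02 and 5.203, and the colon averaged 10.1 ± 2.76 (n = 6). The testis did not overlap any other tissue. Colon did not overlap heart or ovary, while its lowest library, at 6.99, lay just under the highest brain and cerebellum libraries, both at 7.04. In exact permutation tests 11 of 15 pairs passed, and the testis ratio was 6.96-fold that of brain (p = 0.0238, adjusted p = 0.0357), 8.96-fold that of heart (p = 0.0357, adjusted p = 0.0487) and 4.13-fold that of colon (p = 0.0238, adjusted p = 0.0357). Colon was 2.17-fold above heart (exact p = 0.00433, adjusted p = 0.0162) and 1.68-fold above brain (exact p = 0.00216, adjusted p = 0.0162), on 26 to 66 Alas2 counts a library. These tests added a pseudocount of 0.5 to each count, which parted the colon from the brain and cerebellum libraries that overlap in the ratios above. With no pseudocount, an alternative chosen after seeing the data, colon was 1.67-fold above brain (exact permutation p = 0.00433, adjusted p = 0.0162), and 11 of the 15 pairs passed. Testis against ovary, 8.58-fold, could not go below p = 0.1 in the exact test of 3 libraries against 3. The testis calls rest on all 3 testis libraries, since with any 1 left out no pair with the testis could reach an exact p under 0.05.

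Slc4a1 per 1000 beta counts was 1.66, 1.74, 1.70, 2.35 and 3.44 in the heart, against 3.89 to 9.12 in brain (median 5.29) and 5.39 to 33.1 in cerebellum (median 7.98). The testis held 16.8, 39.9 and 19.5, the ovary 4.33, 0 and 0.598, and the colon 1.62 to 16.0 (median 10.1). The heart ratio was 0.375-fold that of brain and 0.223-fold that of cerebellum (both exact permutation p = 0.00433, adjusted p = 0.0325), without overlap. Colon was 4.24-fold above heart (exact p = 0.00866, adjusted p = 0.0433), with overlap. The testis ratio was 4.27-fold that of brain, which missed the threshold (exact p = 0.0238, adjusted p = 0.0595). Of the 60 tests of shares and of ratios to beta, 14 passed with all libraries. Without any 1 of the testis libraries 8 passed, where no pair with the testis could. With the 4 doubted libraries of cerebellum, heart and colon left out together 0 passed. Then 10 rather than 14 of the 15 pairs of tissues could reach an exact p under 0.05 before adjustment. After adjustment no pair could pass unless brain against cerebellum was at its smallest possible exact p of 0.00952. With all libraries that pair was at an exact permutation p of 0.610 for Alas2 to beta and 0.0996 for Slc4a1 to beta. The 0 therefore does not show whether the ratios differed.

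**Figure D3:**
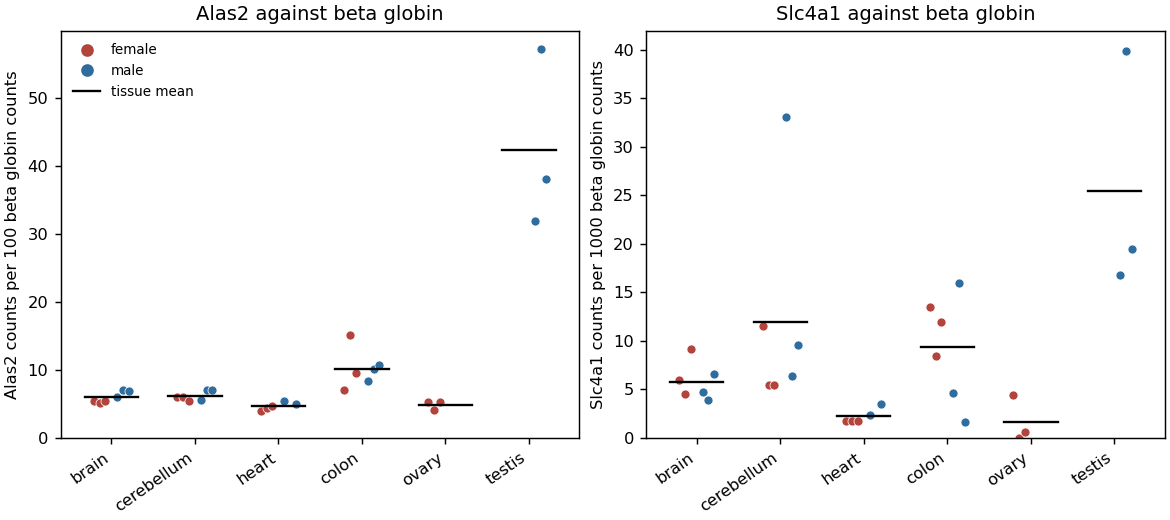
Alas2 counts per 100 beta globin counts (left) and Slc4a1 counts per 1000 beta globin counts (right) in each library, with females in red, males in blue and a bar at the tissue mean. The 3 testis libraries lie at 31.9 to 57.1 on the left, above the 3.85 to 15.1 of all others, and the heart libraries lie at 1.66 to 3.44 on the right.

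Alas2 overlaps another gene. Its exons shared 309 bases with exons of Apex2, which encodes an endonuclease of DNA repair and is read from the opposite strand. Apex2 stood at 91.1, 92.7 and 37.9 CPM in female hearts and 39.4 and 40.2 CPM in male hearts, against 8.29 to 17.3 CPM in brain and 13.9 to 22.4 CPM in cerebellum. The heart libraries with the most Alas2 thus also had the most Apex2. In the testis, however, Apex2 was at 8.22, 6.73 and 6.83 CPM, its lowest level in any tissue, beside 19.9 to 22.7 CPM of Alas2. The sources used here do not say whether counting used the strand. Over the whole table, of 260 features whose exons were at least 95% covered by well counted exons on the opposite strand alone, 259 (99.6%) had counts, against 10 of 337 (2.97%) covered on the same strand and 37045 of 46016 (80.5%) covered on neither. Whether reads of one gene were counted for the other in heart was not tested.

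**Figure D4:**
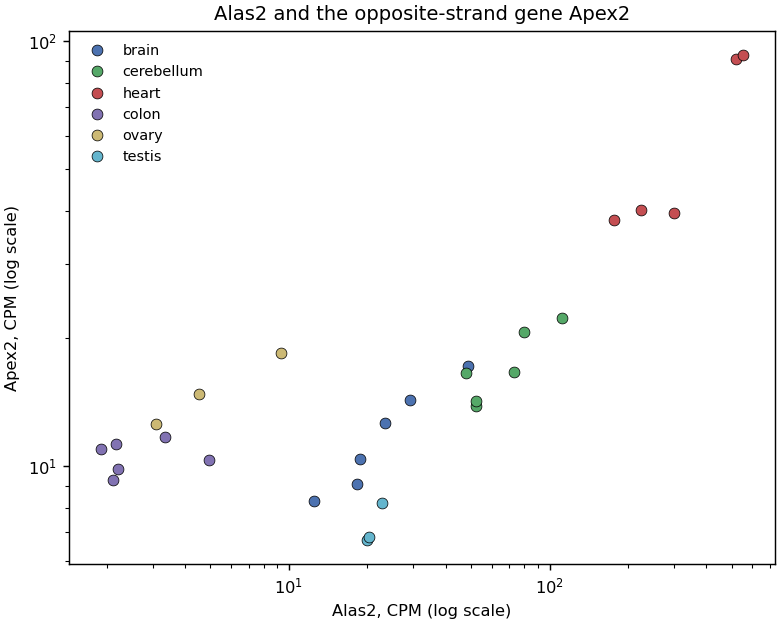
Apex2 against Alas2 in CPM, both on log axes, in 29 libraries colored by tissue. The 5 heart libraries are highest on both axes (Apex2 37.9 to 92.7 CPM), and the testis libraries have the lowest Apex2, 6.73 to 8.22 CPM, at an Alas2 level like that of brain.

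Other genes of the red cell were read from lists by function. The embryonic globins Hba-x, Hbb-bh1 and Hbb-bh2 and the beta pseudogene Hbb-bh3 had 0 counts in all 29 libraries, and embryonic Hbb-y had at most 5 counts in any library. The theta globins Hbq1a and Hbq1b reached at most 23 and 28 counts, with means of 0.440 and 0.677 CPM in heart and 0 in colon. The pseudogene Hba-ps4 reached 25 counts in 1 library, Hba-ps3 had 3 counts in 1 library and Hbb-bh0 2 counts in 1 library. Globins with other roles kept their own patterns: myoglobin (Mb), the oxygen store of muscle, averaged 10280 CPM in heart and at most 1.95 CPM elsewhere, neuroglobin (Ngb) 8.22 CPM in colon and 6.30 CPM in brain, and cytoglobin (Cygb) 218 CPM in ovary and 33.5 to 74.6 CPM elsewhere.

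Enzymes of heme synthesis other than Alas2 were detected in all tissues, and the 8 of them summed to 267 CPM in brain, 291 CPM in cerebellum, 326 CPM in colon, 399 CPM in testis, 448 CPM in ovary and 689 CPM in heart (means). From brain to heart 7 of the 8 were called higher and 0 lower, where 23.7% of all genes were called higher and 35.1% lower. The median log2 difference was 1.54 for the list and -0.22 for all genes. From brain to cerebellum 1 was called higher and 0 lower (10.8% and 15.3% of all genes). From brain to testis 3 were called higher and 4 lower, where 40.4% and 31.2% of all genes were. Alas1, the housekeeping counterpart of Alas2, averaged 59.7 CPM in brain, 57.3 in cerebellum, 250 in heart, 167 in colon, 102 in ovary and 256 in testis. Fech, which inserts iron into the ring, averaged 85.3 CPM in brain, 244 in heart and 61.8 in testis, and Alad, the enzyme after Alas2, 20.2 CPM in brain, 49.6 in heart and 27.5 in testis.

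Of 13 further red cell membrane and skeleton genes, 6 were called higher and 2 lower in cerebellum than in brain (10.8% and 15.3% of all genes), with a median log2 difference of 1.97 for the list and 0.00 for all genes. From brain to heart 10 were called higher and 2 lower (median 2.46 against -0.22), and from brain to testis 5 higher and 5 lower (40.4% and 31.2% of all genes). Ankyrin (Ank1) averaged 343 CPM in cerebellum and 203 CPM in heart, Tmod1 412 CPM in heart and 62.6 CPM in brain, and the water channel Aqp1 243 CPM in heart and 206 CPM in ovary. Of 16 genes of red cell precursors, 4 were called higher and 2 lower in cerebellum than in brain, 8 higher and 2 lower in heart, and 5 higher and 4 lower in testis. The shares of all genes called higher and lower were 10.8% and 15.3% in cerebellum, 23.7% and 35.1% in heart, and 40.4% and 31.2% in testis. Carbonic anhydrase Car1 led this list at 14630 CPM in colon, where the globins were lowest, and at most 1.12 CPM in any other tissue. Bnip3l averaged 70.5 to 176 CPM and the transferrin receptor Tfrc 25.7 to 160.2 CPM over tissues.

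From brain to testis, 5 of the 16 genes of red cell precursors were called higher, 4 lower and 7 not at all. The median log2 difference was -0.07 for the list and 0.22 for all genes, so the list as a whole was not raised. Of the genes called higher, 2 are given here, picked after their values were seen. Hemgn, a nuclear protein of blood precursors, averaged 146 CPM in testis and at most 1.35 CPM elsewhere, and was listed at 0 counts in the ovary. The factor Gata1, which drives red cell genes, averaged 8.60 CPM in testis and 12.8 CPM in ovary and at most 0.310 CPM in the other tissues. From brain to testis the log2 difference was 9.75 for Hemgn (SE 0.60, adjusted p = 6.38e-13, edgeR) and 7.52 for Gata1 (SE 0.63, adjusted p = 6.04e-11), while the 4 globins fell.

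Of 4 genes that bind or clear free hemoglobin, 3 were called higher and 1 lower in heart than in brain (23.7% and 35.1% of all genes), and 3 higher and 0 lower in heart than in cerebellum (23.5% and 33.9% of all genes). In colon, where all 6 members were called lower than in brain, 3 of the 4 were called higher and 1 lower (29.6% and 38.7% of all genes). The scavenger receptor Cd163 averaged 52.9 CPM in heart and 47.2 CPM in colon, and the heme oxygenase Hmox1 63.7 CPM in ovary against 6.34 to 18.9 CPM elsewhere. Haptoglobin (Hp) averaged 49.96 CPM in testis, and in heart it was at 258.5 CPM in female replicate 3, which held 6206 of the 6271 heart counts, and at 0.0822 to 1.63 CPM in the other 4 libraries. The calls of this list in heart were not tested without female replicate 3.

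Markers of other blood cells moved with the globins in some tissues and not in others. The 7 neutrophil genes, all detected in 5 of the tissues and 6 of them in ovary, summed to 30.7 to 280.2 CPM in cerebellum and 4.12 to 32.0 CPM in brain, but to 1.45 to 9.83 CPM in heart, where globin was highest. All 7 were called higher in cerebellum than in brain, where 10.8% of all genes were, with a median log2 difference of 2.84. The highest sums were 280.2 CPM in male cerebellum replicate 1 and 114 CPM in female cerebellum replicate 1, which also had the most Slc4a1, and in brain 32.0 CPM in female replicate 1, which had the most globin. The granule genes Ngp and Ltf, made by immature neutrophils, averaged 25.2 and 19.8 CPM in cerebellum and 0.687 and 0.578 CPM in heart, and S100a9 24.0 and 2.14 CPM. Their part in the cerebellum values of the members was not tested. With the 3 doubted cerebellum and heart libraries and male colon replicate 1 left out together, 81 of the 90 tissue comparisons were called.

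The 6 platelet genes summed to 32.7 to 89.2 CPM in heart and to 4.23 to 19.3 CPM in all other libraries, and all 6 were called higher in heart than in brain, where 23.7% of all genes were. Pf4 averaged 21.0 CPM in heart and 9.80 CPM in colon, Ppbp 20.8 and 0.311 CPM, and Itga2b 5.59 and 1.57 CPM. The 6 lymphocyte genes summed to 82.4 CPM in female heart replicate 3 and 3.64 to 6.26 CPM in the other hearts, and to 114 CPM in male colon replicate 1 and 10.05 to 13.7 CPM in the other colons. Female heart replicate 3 had the fewest globin counts of the hearts. The B cell genes Ms4a1 and Cd79a led that list, followed by Cd3e of T cells. Endothelial genes summed to 294 to 596 CPM in heart and 410.1 to 468 CPM in ovary, and the globins averaged 136 CPM in ovary against 9684 CPM in heart. In edgeR, with TMM scaling, 4 of the 6 endothelial genes were called lower and 1 higher in ovary than in heart (18.3% and 25.7% of all genes), with a median log2 difference of -0.77 for the list and 0.16 for all genes. Pecam1 averaged 179 CPM in heart and 81.2 in ovary, Kdr 140.1 and 144, and Cdh5 87.1 and 88.1.

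**Figure D5:**
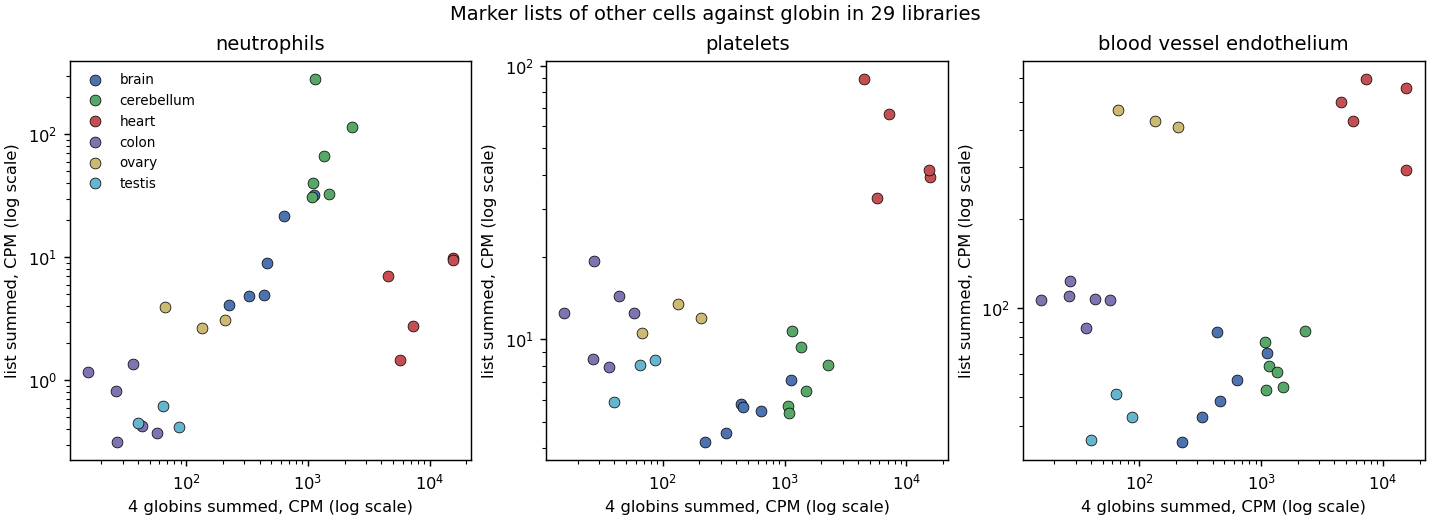
Summed CPM of neutrophil, platelet and blood vessel endothelium marker genes against the summed 4 globins in 29 libraries colored by tissue, all axes log. Neutrophil sums are highest in cerebellum (30.7 to 280.2 CPM) and low in heart (1.45 to 9.83 CPM), platelet sums are highest in heart (32.7 to 89.2 CPM), and endothelial sums are 410.1 to 468 CPM in ovary and 294 to 596 CPM in heart, where 4 of the 6 genes were called higher than in ovary and 1 lower.

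Beyond the members, genes among the 10 most like beta globin across the 29 libraries in Pearson's r of log2 CPM were Jam2 (0.958), Pacsin3 (0.956), Adssl1, Fndc5, Gm5860, Smim19, A630019I02Rik, Crhr2 and Ppp1r14c (0.943). These r values reflect the order of the tissues, and among the members they were 0.992 to 0.993 for Hba-a1, Hba-a2 and Hbb-bt, 0.954 for Alas2 and 0.896 for Slc4a1. After the mean of each group was subtracted, other genes came first: Apex2 (0.862), a locus joining Glt28d2, Fam160a1 and Gm37240 (0.843), Trim10 (0.839), Tent5c (0.836), Patj, Lrrc1, Cldn7, Kifc3, Whrn and Ube2l6 (0.782). On that scale the members reached 0.928 for Alas2, 0.924 for Hba-a1, 0.901 for Hbb-bt, 0.897 for Hba-a2 and 0.680 for Slc4a1. The values are given as a description, since all genes share the library totals and the 10 genes of each ranking were taken from 29911.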

How the data were processed

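RNA was sequenced in 29 libraries with a stranded, rRNA-depleted protocol, and 6 Iso-seq runs served the annotation. The deposited counts are raw reads per gene: the authors combined Iso-seq and ENSEMBL gene models on GRCm38.p6 and kept uniquely mapped reads. The submitters' processing notes name FastQC 0.11.8, MultiQC 0.9, HISAT2 2.0.5, featureCounts 1.6.3 and mm10, and whether counting used the strand is not given in the sources used here. Other deposited files hold the gene models and a table of identifiers.

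Members, lists and the pairs compared were chosen with earlier results of these data known. Genes passing edgeR's filter on low counts (29911 genes) were fitted with edgeR 4.0.16 (R 4.3.3) with TMM scaling and 1 mean for each of the 10 groups. Pairs of tissues (15), the sexes in 4 tissues and sex by tissue were tested with the quasi-likelihood test, with Benjamini-Hochberg adjustment within each comparison and a threshold of 0.05. The script was tested on simulated data. CPM used the total count of a library, and FPKM the union of exons. Ratios were log2 transformed with a pseudocount of 0.5 added to each count, compared by exact two-sided permutation tests (scipy 1.17.1) and adjusted over the 15 pairs. Depth ran from 11742417 to 36194255 counts.

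All members were named, and from each list the 3 genes of highest mean CPM, genes at 0 counts throughout, and all globins. The 10 genes most correlated with summed beta globin used log2 CPM with a prior count of 2. Some genes that these rules name are not reported here. Of 83 list genes, 4 had no row of their own symbol and were left out. Alternatives were other size factors, DESeq2 1.42.0, no filter, a replicate block, library sizes without the members, another pseudocount, other lengths and each library left out. Leaving out 4 libraries together, a block of library code sets, and Alas2 to beta with no pseudocount were chosen after seeing the data.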

Additional observations from a re-analysis of the deposited data

Results flagged for a closer look

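In 44 sets of 4 to 10 libraries, 5 had 1 library farther from the rest than Dixon's 95% limit allows (11.4%). The sets are not independent, since they share libraries and the ratios are built from the members. The limit also assumes normal values of a single population, while untransformed values of both sexes were used. This share therefore cannot be set against a chance rate. Hba-a2 in brain was highest in female replicate 1, at 97.4 CPM against 28.3 CPM in the next library. Hbb-bs in cerebellum was highest in female replicate 1, at 1769 CPM against 1059 CPM in the next. Hbb-bt in colon was highest in male replicate 3, at 4.2 CPM against 1.8 CPM. The share of Hbb-bs in the beta counts of brain was lowest in male replicate 2, at 93.4% against 94.2%. Slc4a1 per 1000 beta counts in cerebellum was highest in male replicate 1, at 33.1 against 11.5.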

How the results depend on the processing

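Of the 90 member comparisons between tissues, 80 were called with TMM, with relative log expression size factors, with DESeq2, without the filter on low counts, with library sizes without the members and with the replicate block, 77 to 82 when 1 library was left out, and 81 with 4 libraries left out together, an alternative chosen after seeing the data. Of the 15 pairs for Alas2 to beta, 11 were called with and without the pseudocount, the second also chosen after seeing the data. Between the sexes 0 were called in each of these settings, with 5 at an unadjusted p under 0.05 in the replicate block, 6 without the filter, 0 to 10 without 1 library and 12 with the 4 left out, and for sex by tissue 0, with up to 3 unadjusted without 1 library and 6 of 6 with the 4 left out. Same-numbered libraries did not deviate together (126 pairs, r from -0.259 to 0.155, median -0.00197), and the replicate block rests on these numbers alone. Library codes in the labels group the libraries another way, into 7 sets of the same sex whose code numbers differ only in the last digit, and the labels do not say what a set is. The 53 pairs of libraries of a set had r from -0.0990 to 0.223 (median 0.0141), 4 of them over 0.1. The 115 pairs from other sets of the same sex had r from -0.259 to 0.279 (median -0.0048), 2 of them over 0.1. With the set as a block, chosen after seeing the data, 36 rather than 35 of the 36 comparisons between brain, cerebellum, heart and colon were called. The sexes share no set, so this block could not be used between them. Shares and ratios called numbered 14, between 8 and 15 without 1 library and 0 with the 4 left out. With the 4 left out, too few libraries remain for a call after adjustment unless brain against cerebellum is at its smallest possible p. The correlation of alpha with beta in cerebellum was 0.824 to 0.932 without 1 library and missed the threshold on 5 libraries without female cerebellum replicate 1, male replicate 2 or male replicate 3. Differences that were not called turned sign in 14 fits. Alas2 from brain to testis (0.02) went to -0.10 without the filter and to between -0.12 and 0.22 without 1 library, Slc4a1 from colon to ovary (-0.47) to between -3.58 and 0.24, Hba-a1 from ovary to testis (-0.11) to 0.054 with relative log expression factors, 0.0495 with DESeq2 and between -0.51 and 0.30 without 1 library, and Hbb-bt from ovary to testis (-0.40) to between -0.83 and 0.61. The cause was not tested. TMM effective library sizes moved 4 of 36 mean levels by more than 1 SD, among them Hba-a2 in heart to 907 CPM. In colon and ovary, 1 to 14 counts of Slc4a1 a library, or 0 in 1 ovary library, limit any comparison.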
